A study of Mus musculus with 6 samples.

Results

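The genes of cholesterol and fatty acid synthesis were followed in RNA-seq libraries of C2C12, a myoblast line from mouse muscle. The list held 34 gene symbols, drawn up by function with earlier results of these data known. Each symbol was matched to an Ensembl identifier through the GENCODE M21 annotation of GRCm38. Of these, 32 had a row among the 14548 gene rows of the libraries. *Mvd* and *Tm7sf2* were not analysed here. There were 3 WT libraries and 3 MSTN-KO libraries. In the MSTN-KO line, named C11, exon 3 of the myostatin gene *Mstn* had been cut with CRISPR/Cas9 after electroporation of a plasmid, and the 3 MSTN-KO libraries come from this line. With 1 line, the deletion cannot be told apart from other differences between C11 and the WT cells. The cells grew in DMEM with fetal bovine serum, and the sources used here name no further treatment of either group. Expression of *Mstn* RNA lay between 0 and 0.0586 FPKM in the 6 libraries, so it gave no check of the labels, and in the sample labels the strain C11 also stands for WT. The grouping therefore follows the genotype in the titles. FPKM, the unit of all levels given here, counts the fragments of a gene relative to its exonic length in kilobases and to the mapped fragments of the library. The labels do not say whether the replicates were separate cultures, so the p-values measure only the spread between these libraries, which may be technical.

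Cells build cholesterol from acetyl-CoA. The mevalonate arm condenses acetyl-CoA to mevalonate and turns it into farnesyl diphosphate, and the squalene and sterol arm joins farnesyl units to squalene, closes the rings to lanosterol and trims lanosterol to cholesterol. Fatty acids start from the same acetyl-CoA, which acetyl-CoA carboxylase and fatty acid synthase extend to palmitate before elongases and desaturases modify the chain. Many of these genes are targets of the SREBP transcription factors, membrane proteins that SCAP carries from the endoplasmic reticulum to the Golgi for cleavage when sterols are low and that INSIG proteins hold back when sterols are high. In myoblasts these pathways supply the membranes of dividing and fusing cells.

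The libraries differed in ways that touch the comparison. Between 13151 and 13478 genes were above 0 FPKM in a library, and the depth, judged from the smallest steps of genes under 0.1 FPKM, lay between 0.856 and 1.11 times that of WT replicate 1, from 453 to 653 genes. The FPKM values summed to between 723705 and 764524 in the WT libraries and to between 856314 and 999579 in the MSTN-KO libraries. Myoblast markers were present, with *Myod1*, a factor that commits cells to muscle, at 126 to 167 FPKM in WT and 90.8 to 104 FPKM in MSTN-KO. Of 6 such markers tested, *Myod1*, *Des*, *Chrna1* and *Itga7* were lower in MSTN-KO, *Pax7* was higher and *Myf5* was not called, and their summed FPKM was 1261 to 1729 in WT and 730.4 to 907 in MSTN-KO. The summed FPKM of 24 listed muscle differentiation genes was 514 to 1543 in the WT libraries and 87.5 to 143 in the MSTN-KO libraries, and 22 of the 23 tested were lower in MSTN-KO and 0 higher (0 at an unadjusted p under 0.05) by the limma test described below. WT replicate 3 had the lowest of the WT sums. Of 11 listed proliferation genes, 1 was higher and 1 lower, beside 8.78% higher and 8.96% lower of all tested genes. The endothelial markers *Pecam1*, *Cdh5*, *Kdr* and *Tek* stayed under 0.0581 FPKM. The adipocyte markers with a row were 5 of 9. Among them *Plin1* was at 0 except for 0.0639 FPKM in MSTN-KO replicate 1, while *Cebpa*, *Plin4* and *Fabp4* were higher in MSTN-KO and *Pparg* was not called. Their summed FPKM was 11.8 to 12.7 in WT and 28.6 to 36.9 in MSTN-KO. The part of muscle differentiation and of the adipocyte markers in the results below was not tested. In bulk RNA of this kind, fewer cells of a type and less RNA per cell cannot be told apart.

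Part of the pathway was expressed more highly in the MSTN-KO libraries. Of the 32 genes, 8 rose and 0 fell, namely *Acat2*, *Mvk* and *Fdps* of the mevalonate arm, *Msmo1* and *Nsdhl* of the sterol arm, *Acss2* of acetyl-CoA supply, and the desaturases *Fads1* and *Fads2*. The mean FPKM of these genes was 1.43 to 1.96 times as high in MSTN-KO as in WT. The other 24 genes did not pass the test, the regulators *Srebf1*, *Srebf2*, *Scap*, *Insig1* and *Insig2* among them. The test was limma on log2(FPKM + 1) over the 10837 genes that reached 1 FPKM in 1 library or more, with a Benjamini-Hochberg adjusted p under 0.05, and all 32 genes passed the filter on low values. The same test called 8.78% of all tested genes higher and 8.96% lower, against 25.0% and 0% of the 32 genes. As the list was chosen with earlier results of these data known, these shares are a description and no test of the list. At an unadjusted p under 0.05, 12 of the 32 genes were higher and 1, *Idi1*, was lower. None of the 32 met the rule of the study's methods, an unadjusted p under 0.05 with a log2 fold change above 1 or below -1, which 3.51% of all tested genes met. On this scale a low gene appears to change less than its FPKM does.

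Most of the 32 genes shifted by small amounts. The log2 fold change was positive for 27 genes and negative for 5, with a median of 0.20 beside -0.00078 over all tested genes. All 3 MSTN-KO libraries were above all 3 WT libraries for 12 genes, or 37.5% of the 32, beside 19.3% of all tested genes. They were below for 1 gene, beside 18.1% of all tested genes, again as a description. These 12 were the 8 called genes with *Pmvk*, *Sqle*, *Lss* and *Acly*. The sign of the median of the 32 genes depends on the scale. When each library was scaled to an FPKM sum of 1000000, the median of all tested genes moved to -0.26 and that of the 32 genes to -0.083. Measured from the median of all tested genes, that of the 32 genes was 0.197 in the main fit and 0.172 after this scaling. *Mvk*, *Fdps*, *Acss2* and *Fads1* were then higher and *Idi1* lower, a split of 4 to 1 in place of 8 to 0, while 3.23% of all tested genes were called higher and 21.8% lower. The 32 genes together held 0.221%, 0.198% and 0.202% of the summed FPKM in WT replicates 1, 2 and 3 and 0.215%, 0.220% and 0.196% in MSTN-KO replicates 1 to 3, so their share of the sum overlapped between the groups. The levels of the 32 genes ran from 2.42 FPKM for *Acss2* in WT replicate 3 to 445.6 FPKM for *Fdps* in MSTN-KO replicate 3.

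**Figure D1:**
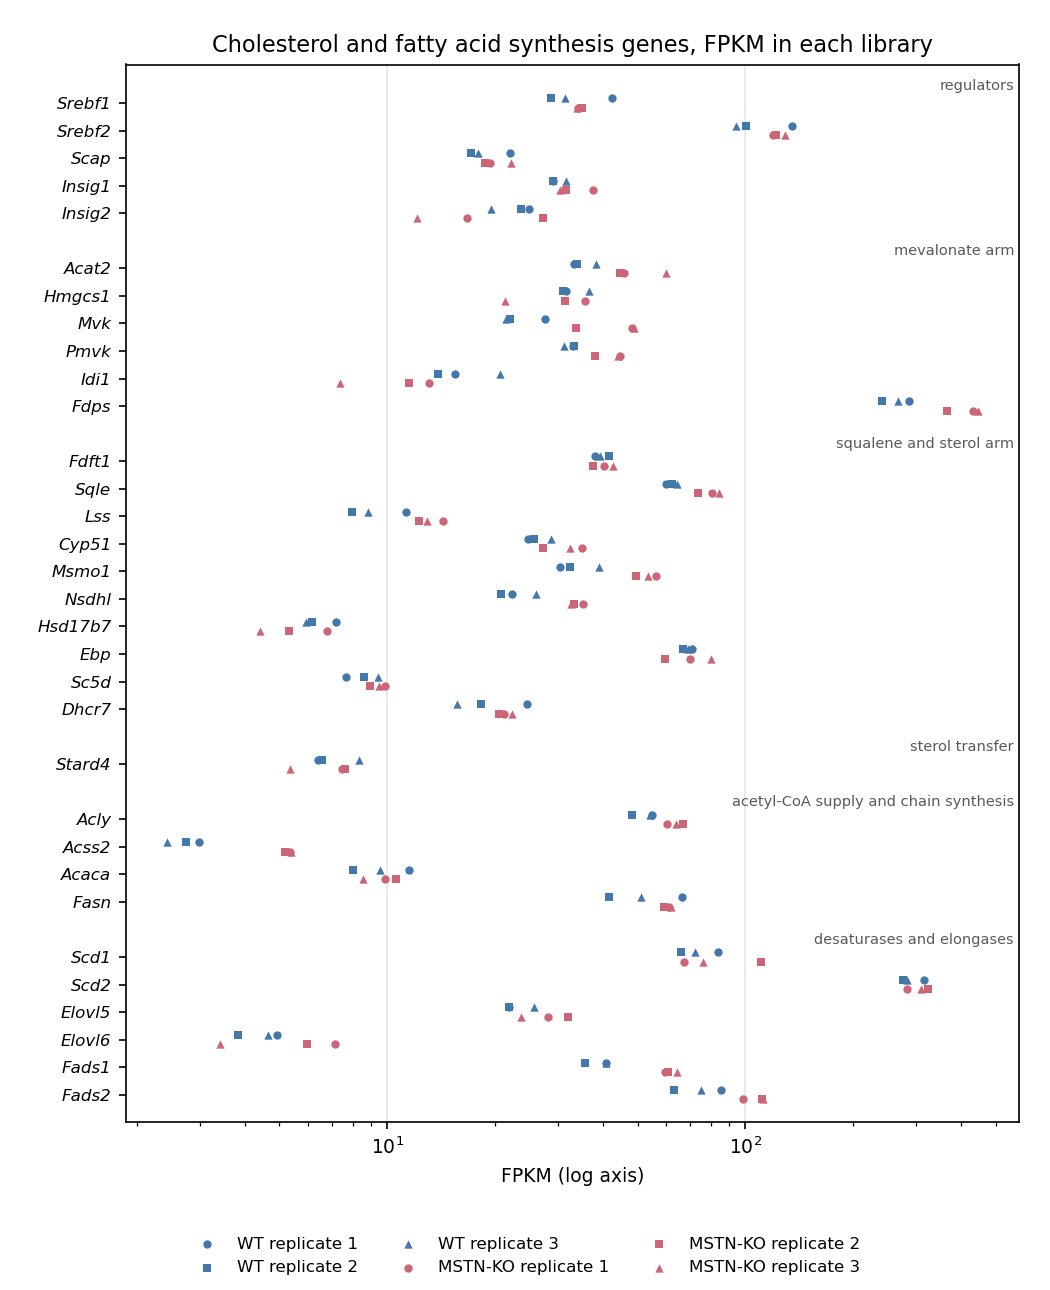
FPKM of the 32 genes in each library on a log axis, grouped by their step in the pathway, with WT in blue, MSTN-KO in red and the marker shape giving the replicate number. For *Mvk*, *Fdps*, *Msmo1*, *Nsdhl*, *Acss2*, *Fads1*, *Fads2* and *Acat2* the red points lie to the right of the blue ones without overlap, while those of the regulators overlap.

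The regulators showed no call in either direction, also 0 at an unadjusted p under 0.05, and their groups overlapped. *Srebf2*, which encodes the SREBP that acts mainly on cholesterol genes, was at 135, 100.4 and 94.3 FPKM in WT replicates 1 to 3 and at 119.6, 122 and 129 FPKM in MSTN-KO replicates 1 to 3. WT replicate 1 was above and WT replicates 2 and 3 were below the MSTN-KO libraries. Its log2 fold change was 0.18 (95% interval -0.13 to 0.49, limma adjusted p = 0.402). *Srebf1*, whose product acts more on fatty acid genes, was at 42.4, 28.6 and 31.3 FPKM in WT and at 34.0, 34.9 and 33.8 FPKM in MSTN-KO. Here too WT replicate 1 stood above and the others below, with a log2 fold change of 0.023 (95% interval -0.30 to 0.35). *Scap*, the escort of the SREBPs, had a log2 fold change of 0.077 (95% interval -0.23 to 0.38). Within a library, *Srebf2* stood at 3.01 to 3.51 times the FPKM of *Srebf1* in WT and at 3.50 to 3.80 times in MSTN-KO.

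Of the INSIG pair, which retain SCAP in the endoplasmic reticulum, *Insig1* is itself an SREBP target. *Insig1* was at 29.0, 29.1 and 31.6 FPKM in WT and at 37.5, 31.6 and 30.4 FPKM in MSTN-KO, with a log2 difference of 0.14 (95% interval -0.14 to 0.42). *Insig2* was at 24.8, 23.7 and 19.5 FPKM in WT and at 16.7, 27.2 and 12.1 FPKM in MSTN-KO. MSTN-KO replicate 2 was the highest of the 6 libraries for *Insig2* and replicates 1 and 3 the lowest. Its log2 fold change was -0.33 (95% interval -0.81 to 0.15, limma adjusted p = 0.324), and without MSTN-KO replicate 2 it was -0.63 (adjusted p = 0.0186). The intervals of the 5 regulators hold both signs, so a change of either direction within them cannot be told from none with 3 libraries a group.

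The mevalonate arm held 3 of the 8 rises and also the gene with the lowest log2 fold change of the list. *Mvk*, mevalonate kinase, lies on chromosome 5 of GRCm38 from 114444269 to 114460591. It was at 27.6, 22.0 and 21.4 FPKM in WT replicates 1 to 3 and at 48.2, 33.5 and 48.8 FPKM in MSTN-KO replicates 1 to 3. The groups did not overlap, and MSTN-KO replicate 2 was the nearest to WT. On the log2 scale *Mvk* rose by 0.84 (standard error, SE, 0.16, limma adjusted p = 0.00399), with means of 23.7 ± 3.42 and 43.5 ± 8.63 FPKM (SD, n = 3) in WT and MSTN-KO, and lay between 0.75 and 1.01 with each library left out.

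*Fdps*, farnesyl diphosphate synthase, makes the branch point from which sterols, prenyl groups, dolichol and ubiquinone are built. It lies on chromosome 3 from 89093588 to 89101959. *Fdps* was at 286, 239.8 and 267 FPKM in WT and at 432, 366 and 446 FPKM in MSTN-KO. No libraries of the groups overlapped. On the log2 scale it rose by 0.65 (SE 0.13, limma adjusted p = 0.00476), the group means being 264 ± 23.3 and 414 ± 42.6 FPKM (SD, n = 3). *Fdps* was the most abundant of the sterol genes. It has 6 processed pseudogenes in the annotation that match 43.8 to 78.3% of its longest transcript at 88.8 to 98.9% identity, and a further annotated transcript, *Gm43738*, shares its exons. None of these 7 had a row in the libraries, and how the authors' counting treated reads that match several places is not given in the sources used here.

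*Acat2*, the cytosolic thiolase that joins acetyl-CoA units at the entry of the arm, lies on chromosome 17 from 12942890 to 12960747. It was at 33.2, 33.9 and 38.3 FPKM in WT and at 45.9, 44.6 and 59.9 FPKM in MSTN-KO, with no overlap. *Acat2* rose by 0.49 on the log2 scale (SE 0.14, limma adjusted p = 0.0295), a call that was lost without the filter on low values (adjusted p = 0.0568), with libraries scaled to 1000000 (0.163), without WT replicate 1 (0.0812) or 2 (0.113) and without MSTN-KO replicate 1 (0.0511) or 3 (0.0922). A close paralog, *Acat3*, matches 65.6% of the *Acat2* transcript at 97.7% identity, so how reads fell between the pair is uncertain. *Acat3* was at 6.53, 9.50 and 9.81 FPKM in WT and at 10.1, 8.07 and 9.24 FPKM in MSTN-KO, and its groups overlapped.

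The remaining mevalonate genes did not move together. *Pmvk*, phosphomevalonate kinase, which acts after *Mvk*, was at 33.0, 33.3 and 31.2 FPKM in WT and at 44.7, 38.1 and 44.0 FPKM in MSTN-KO. The groups did not overlap, but the log2 fold change of 0.37 missed the threshold (SE 0.12, limma adjusted p = 0.0578), and without MSTN-KO replicate 2 it was 0.44 (adjusted p = 0.0378). *Hmgcs1*, HMG-CoA synthase, was at 31.6, 30.9 and 36.6 FPKM in WT and at 35.7, 31.3 and 21.3 FPKM in MSTN-KO. Its groups overlapped, with a log2 fold change of -0.19 (95% interval -0.56 to 0.19). *Idi1*, isopentenyl diphosphate isomerase, was at 15.4, 13.8 and 20.7 FPKM in WT and at 13.1, 11.5 and 7.40 FPKM in MSTN-KO.

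For *Idi1* all 3 MSTN-KO libraries were below all 3 WT libraries, the opposite order to *Mvk* before it and *Fdps* after it in the pathway. The log2 fold change was -0.61 (SE 0.20) and its limma adjusted p of 0.0509 lay just over the threshold. The call moved with single libraries. *Idi1* passed without MSTN-KO replicate 1 (-0.76, adjusted p = 0.0253) or 2 (-0.68, 0.0362), and without MSTN-KO replicate 3 it was -0.39 (0.186). The adjusted p over the settings tried lay between 0.0253 and 0.186. Like *Fdps*, *Idi1* has near-identical processed pseudogenes, of which *Gm13502* matches 22.6% of its longest transcript at 100% identity. Summed over the arm, the FPKM was 427, 374 and 415 in WT and 619.5, 525 and 627 in MSTN-KO. *Fdps* carried most of this sum, and without it the sums were 141, 134 and 148 in WT and 188, 159 and 181 in MSTN-KO. As a share of the summed FPKM of the library, the whole arm held 0.0516 to 0.0565% in WT and 0.0613 to 0.0699% in MSTN-KO. These shares did not overlap. Without *Fdps* the share was 0.0185 to 0.0194% in WT and 0.0181 to 0.0212% in MSTN-KO, and the groups overlapped.

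**Figure D2:**
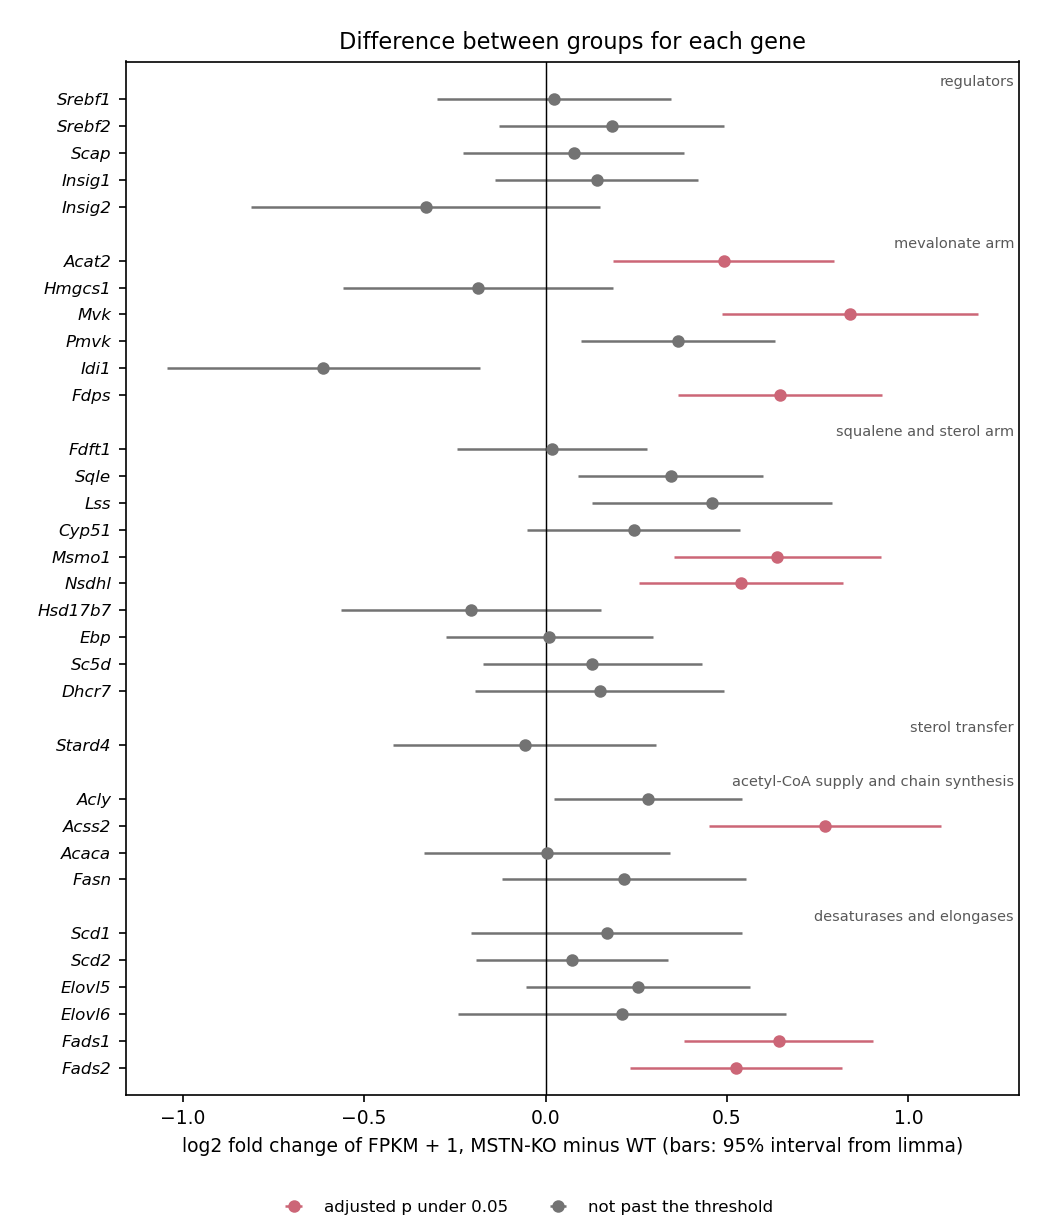
Log2 fold change of FPKM + 1 (MSTN-KO minus WT) of the 32 genes by step of the pathway, with 95% intervals from limma that are not adjusted for the number of genes, and the 8 genes with an adjusted p under 0.05 in red. *Mvk* stands highest at 0.84 and *Idi1* lowest at -0.61, and the points of the regulators lie between -0.33 and 0.18.

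In the squalene and sterol arm 2 of 10 genes rose, beside 8.78% of all tested genes. Both act in the removal of the methyl groups at carbon 4 of the sterol. *Msmo1*, the methyl oxidase, lies on chromosome 8 from 64718139 to 64733792. It was at 30.4, 32.3 and 38.9 FPKM in WT and at 56.4, 49.4 and 53.4 FPKM in MSTN-KO. The groups were apart, and the log2 fold change was 0.64 (SE 0.13, limma adjusted p = 0.00539), with 0.36 and an adjusted p of 0.0537 when libraries were scaled to 1000000. *Nsdhl*, the dehydrogenase that follows, lies on chromosome X from 72918557 to 72958514 and was at 22.3, 20.7 and 25.9 FPKM in WT and at 35.2, 33.2 and 32.6 FPKM in MSTN-KO. Again no libraries overlapped, and the log2 fold change was 0.54 (SE 0.13, limma adjusted p = 0.0131). The *Nsdhl* call was lost without WT replicate 2 (adjusted p = 0.0878) or MSTN-KO replicate 1 (0.0615) and with libraries scaled to 1000000 (0.135).

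*Hsd17b7*, the ketoreductase that completes the same demethylation, differed from that pair. It was at 7.21, 6.16 and 5.92 FPKM in WT and at 6.77, 5.30 and 4.42 FPKM in MSTN-KO, with overlapping groups and a log2 fold change of -0.21 (95% interval -0.56 to 0.15). Among the earlier steps of the arm, *Sqle* and *Lss* were intermediate, while *Fdft1* was close to level and *Cyp51* overlapped between the groups. *Sqle*, squalene epoxidase, a rate-limiting step of the arm, was at 60.1, 62.5 and 64.6 FPKM in WT and at 80.8, 73.8 and 84.2 FPKM in MSTN-KO. *Lss*, which closes the rings to lanosterol, was at 11.3, 7.96 and 8.86 FPKM in WT and at 14.3, 12.3 and 12.9 FPKM in MSTN-KO.

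Both *Sqle* and *Lss* were without overlap between the groups and just missed the threshold, with log2 fold changes of 0.34 (SE 0.12, limma adjusted p = 0.0605) and 0.46 (SE 0.15, adjusted p = 0.0546). Once length and GC content had been corrected for in each library, both passed, at 0.39 (adjusted p = 0.0114) and 0.53 (0.0141). *Sqle* also passed without MSTN-KO replicate 2 (adjusted p = 0.0485) and without the filter on low values (0.0464), and *Lss* without WT replicate 1 (0.0259) and with quantile normalization (0.0380).

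*Cyp51*, the lanosterol demethylase, had a log2 fold change of 0.24 (95% interval -0.050 to 0.54), and its lowest MSTN-KO library, 27.1 FPKM, lay below its highest WT library, 28.7 FPKM. *Fdft1*, squalene synthase, was close to level, at 39.6 ± 1.88 FPKM (SD, n = 3) in WT and 40.2 ± 2.68 FPKM in MSTN-KO, with a log2 difference of 0.018 (95% interval -0.24 to 0.28). It shares 18.3% of its exonic length with *Ctsb* on the other strand. *Ebp*, the sterol isomerase, had 69.0 ± 2.03 and 70.0 ± 10.2 FPKM. The late enzymes *Sc5d* and *Dhcr7* had log2 fold changes of 0.13 and 0.15. *Stard4*, which carries sterols between membranes, was at 6.41, 6.57 and 8.32 FPKM in WT and at 7.48, 7.62 and 5.34 FPKM in MSTN-KO, with overlapping groups.

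Of the 4 genes of acetyl-CoA supply and chain synthesis, *Acss2* rose. It encodes the enzyme that turns acetate into acetyl-CoA and lies on chromosome 2 from 155517948 to 155585724. *Acss2* was at 2.97, 2.75 and 2.42 FPKM in WT and at 5.36, 5.19 and 5.40 FPKM in MSTN-KO. The MSTN-KO libraries lay close together and well above WT, and the ratio of the means, 1.96, was the highest of the 32 genes. The log2 fold change was 0.77 (SE 0.15, limma adjusted p = 0.00369) and 0.71 to 0.82 with each library left out. *Acss2* shares 3.89% of its exonic length with *Gss* and 1.94% with *Ggt7* on the other strand, and both have rows in the libraries. *Acly*, which makes acetyl-CoA from citrate, was at 54.7, 48.1 and 54.2 FPKM in WT and at 60.4, 67.0 and 64.0 FPKM in MSTN-KO. Its groups did not overlap, but its log2 fold change of 0.28 was not called (limma adjusted p = 0.122).

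The enzymes that build the chain showed no such step. *Fasn*, fatty acid synthase, was at 66.5, 41.6 and 51.2 FPKM in WT and at 61.3, 59.1 and 61.8 FPKM in MSTN-KO. The WT replicates spread more widely than the MSTN-KO replicates, and the highest of the 6 libraries was a WT library. The log2 fold change of *Fasn* was 0.22 (95% interval -0.12 to 0.55). *Acaca*, acetyl-CoA carboxylase, had 9.69 ± 1.73 FPKM (SD, n = 3) in WT and 9.66 ± 1.03 FPKM in MSTN-KO, with a log2 difference of 0.0039 (95% interval -0.34 to 0.34).

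Among the desaturases and elongases both front-end desaturases rose, which insert double bonds in the synthesis of polyunsaturated fatty acids. *Fads1*, on chromosome 19 from 10182888 to 10196877, was at 40.9, 35.6 and 40.8 FPKM in WT and at 59.5, 60.8 and 64.2 FPKM in MSTN-KO. *Fads2*, its neighbour from 10062765 to 10101746, was at 85.4, 63.2 and 75.2 FPKM in WT and at 98.7, 110.9 and 112 FPKM in MSTN-KO. Neither gene had overlapping groups. The log2 fold changes were 0.64 for *Fads1* (SE 0.12, limma adjusted p = 0.00323) and 0.53 for *Fads2* (SE 0.14, adjusted p = 0.0179). The *Fads2* call was lost without WT replicate 2 (adjusted p = 0.123) or MSTN-KO replicate 3 (0.0602) and with libraries scaled to 1000000 (0.144). *Fads2* stood at 1.77 to 2.09 times the FPKM of *Fads1* in the WT libraries and at 1.66 to 1.82 times in the MSTN-KO libraries.

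The stearoyl-CoA desaturases, which make monounsaturated fatty acids, were not called. *Scd2* was the second most abundant gene of the list after *Fdps*, at 314, 275 and 282 FPKM in WT and at 283, 324 and 309.8 FPKM in MSTN-KO, with a log2 difference of 0.073 (95% interval -0.19 to 0.34). *Scd1* was at 83.6, 65.9 and 72.1 FPKM in WT and at 67.2, 110.7 and 76.1 FPKM in MSTN-KO. MSTN-KO replicate 2 was the highest for both. Without it the log2 fold change of *Scd1* turned from 0.17 to -0.039. *Scd1* and *Scd2* match over 24.8% of the *Scd1* transcript at 87.6% identity, and the related *Scd3* and *Scd4* stayed under 0.185 FPKM. Of the elongases, *Elovl5* had a log2 fold change of 0.25 (95% interval -0.054 to 0.56) and passed once length and GC content were corrected for (0.32, limma adjusted p = 0.0439). *Elovl6* was at 4.93, 3.84 and 4.64 FPKM in WT and spread more widely in MSTN-KO, at 7.15, 5.98 and 3.41 FPKM.

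Taken by summed FPKM, the 16 sterol genes of both arms were at 724, 665 and 721 in WT and at 989.6, 853 and 1001 in MSTN-KO, without overlap. The 10 fatty acid genes were at 687, 566 and 617 in WT and at 680.3, 786 and 729 in MSTN-KO, and here the lowest MSTN-KO library lay below the highest WT library. These sums are weighted to the abundant genes *Fdps* and *Scd2*. Without *Fdps* the sterol sum was 425 to 454 in WT and 487 to 558 in MSTN-KO, and without *Scd2* the fatty acid sum was 291 to 372 in WT and 398 to 462 in MSTN-KO, so both sums then stood apart between the groups in FPKM. As a share of the summed FPKM of the library, which was itself higher in MSTN-KO, both overlapped. The sterol genes without *Fdps* held 0.0580 to 0.0594% in WT and 0.0556 to 0.0629% in MSTN-KO, and the fatty acid genes without *Scd2* 0.0402 to 0.0493% and 0.0419 to 0.0540%. With *Fdps* the share of the sterol genes was 0.0918 to 0.0958% in WT and 0.0996 to 0.112% in MSTN-KO, without overlap. Of the sterol genes 5 of 16 rose and of the fatty acid genes 3 of 10, with medians of 0.29 and 0.24 on the log2 scale. The same fit called 8.78% of all tested genes higher. Whether the arms differ from each other was not tested.

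The spread within the groups followed a pattern that was not confined to the list. WT replicate 1 was the highest of the WT replicates for 19 of the 32 genes and WT replicate 2 the lowest for 16. Such orders were counted only for the 32 genes. The median log2 excess of WT replicate 1 over the mean of WT replicates 2 and 3 was 0.125, beside 0.0557 over 10784 tested genes. This excess rose with the GC content of the transcript. Spearman's rho was 0.63 over the 32 genes beside 0.46 over 10784 tested genes, as a description across genes of the same libraries. *Srebf1*, *Srebf2* and *Fasn*, with 57.9 to 58.4% GC, are among the genes with this excess. In MSTN-KO, replicate 2 was the lowest of the 3 replicates for 15 of the 32 genes and for 5 of the 8 called ones. Its log2 difference from the mean of MSTN-KO replicates 1 and 3 had a median of -0.042, beside -0.024 over 10784 tested genes. This difference fell with GC content. Spearman's rho was -0.35 over the 32 genes and -0.48 over 10784 tested genes. The log2 fold change itself had a Spearman's rho with GC content of 0.29 over the 32 genes and 0.30 over all. After the correction for length and GC content 11 genes rose and 0 fell, with *Sqle*, *Lss* and *Elovl5* added to the 8. The calls over all 10784 genes in that fit rose as well, to 12.4% higher and 11.2% lower.

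Promoter sequence was read for the genes with an entry among RefSeq windows of GRCm38.p6, which run from 250 bases before to 50 bases after a start site. Such windows were found for 25 of the 32 genes, and not for *Fdps*, *Fads1*, *Sqle*, *Fdft1*, *Scd1*, *Scd2* and *Stard4*. SREBPs bind sterol regulatory elements and act together with NF-Y, which binds CCAAT boxes, and Sp1, which binds GC boxes. The letters TCACNCCAC, a core of the sterol regulatory element, were searched on both strands. The match was in *Hmgcs1* alone of the 25 genes, while 1.44% of all 27025 genes with a window held it. Other spellings of the element and sites outside the windows were not searched, so a gene without a match may still hold an element. The *Hmgcs1* window on the plus strand, chr13:119690101-119690400, is shown because it holds this match together with 4 CCAAT boxes. The capitals mark TCACCCCAC and the CCAAT boxes, the latter written ATTGG where they lie on the other strand.
Hmgcs1: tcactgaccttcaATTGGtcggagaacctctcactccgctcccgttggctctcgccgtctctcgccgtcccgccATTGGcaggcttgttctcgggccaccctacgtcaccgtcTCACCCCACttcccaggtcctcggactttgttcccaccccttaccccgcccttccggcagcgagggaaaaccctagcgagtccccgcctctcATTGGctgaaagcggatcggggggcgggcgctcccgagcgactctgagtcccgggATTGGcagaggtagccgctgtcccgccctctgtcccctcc

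The other motifs were common. CCAAT on either strand was found in the windows of 20 of the 25 genes (80.0%), beside 43.5% of the 8455 tested genes with a window and 41.1% of all genes with a window. GGGCGG, the Sp1 box, was in 20 of the 25 genes beside 71.4% of the tested genes. Of the 8 genes that rose, 6 had a window, and CCAAT was in 4 of these, *Acss2*, *Mvk*, *Msmo1* and *Nsdhl*, and in 16 of the 19 genes with a window that were not called. A match of letters is a description and no site of binding. For these 4 genes the CCAAT box nearest before the start site is shown with 18 bases on each side, in the direction of the gene and with the box in capitals, as CCAAT or as ATTGG. These 4 were chosen after their values were seen. The first base of the box lies at -73 in *Acss2*, -14 in *Mvk*, -55 in *Msmo1* and -20 in *Nsdhl*, counted from the start site.
Acss2, chr2:155517952-155517992, plus strand: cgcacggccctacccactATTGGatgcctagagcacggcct
Mvk, chr5:114444237-114444277, plus strand: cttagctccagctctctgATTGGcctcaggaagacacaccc
Msmo1, chr8:64733611-64733651, minus strand: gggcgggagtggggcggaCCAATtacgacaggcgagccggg
Nsdhl, chrX:72918483-72918523, plus strand: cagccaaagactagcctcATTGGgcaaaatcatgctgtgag

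Neighbouring lipid pathways were counted in the same fit, from lists set out by function with earlier results of these data known. That fit called 8.78% of all tested genes higher and 8.96% lower, to be read beside its counts below. Of 13 tested genes for the transport, cleavage and turnover of SREBPs and INSIGs, 0 rose and 1 fell, *Ufd1*, a partner in the extraction of proteins for degradation, at -0.74 (limma adjusted p = 0.00488). At an unadjusted p under 0.05 they were 0 and 2. Of 12 genes of the isoprenoid branch, which uses farnesyl diphosphate, 0 rose (1 at an unadjusted p under 0.05) and 1 fell. This was *Ggps1*, geranylgeranyl diphosphate synthase, at 5.94, 5.15 and 8.19 FPKM in WT and at 2.75, 3.23 and 1.64 FPKM in MSTN-KO. Its log2 fold change was -1.08 (limma adjusted p = 0.00352), opposite to that of *Fdps*, whose product it uses, and its call was kept under each setting tried. *Ggps1* lies on chromosome 13, where the median log2 fold change of all tested genes was -0.34 and 82.0% of them were negative. The part of the chromosome in this fall was not tested.

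Of 20 tested genes of further fatty acid synthesis and activation, 2 rose and 1 fell (3 and 2 at an unadjusted p under 0.05). *Aacs*, which makes acetoacetyl-CoA from ketone bodies, rose by 0.44 on the log2 scale (limma adjusted p = 0.0401) and *Acsl1*, an acyl-CoA synthetase, by 0.59 (0.0245). *Acsl4*, another acyl-CoA synthetase, fell by 0.81 on the log2 scale (0.0381). These calls were lost in 6 to 8 of 16 settings, among them the fits without MSTN-KO replicate 1 or 3, where the list had 0 calls in either direction. Of 13 glycerolipid and lipid droplet genes, 1 rose and 0 fell (2 and 0 at an unadjusted p under 0.05). It was *Lipe*, hormone-sensitive lipase, at 0.66 (limma adjusted p = 0.0163), which did not pass without WT replicate 2, WT replicate 3 or MSTN-KO replicate 1, or with libraries scaled to 1000000.

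Of 15 tested genes of sterol trafficking and efflux, 1 rose and 1 fell (1 and 3 at an unadjusted p under 0.05). *Lrp1*, an endocytic lipoprotein receptor, rose by 0.76 on the log2 scale (limma adjusted p = 0.000972). *Stard3nl*, a protein of late endosome membranes, fell by 0.94 on the log2 scale (limma adjusted p = 0.000591). *Stard3nl* lies on chromosome 13, as does *Ggps1*, and the part of the chromosome in its fall was not tested. Fatty acid oxidation, the breakdown of the same chains in mitochondria, had 4 of 19 tested genes higher and 0 lower (7 and 2 at an unadjusted p under 0.05), with a median log2 fold change of 0.28. *Acadm*, medium-chain acyl-CoA dehydrogenase, was at 27.3, 34.3 and 36.0 FPKM in WT and at 83.3, 64.7 and 64.6 FPKM in MSTN-KO, with a log2 difference of 1.10 (limma adjusted p = 0.000273). *Etfb*, *Hadh* and *Echs1* followed at 0.79, 0.58 and 0.48, and *Echs1* did not pass without WT replicate 2 or MSTN-KO replicate 1, or with libraries scaled to 1000000. After the length and GC correction 8 of the oxidation genes were higher, and with libraries scaled to 1000000 the split was 3 higher to 3 lower. Over all tested genes these settings called 12.4% higher and 11.2% lower, and 3.23% higher and 21.8% lower.

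**Figure D3:**
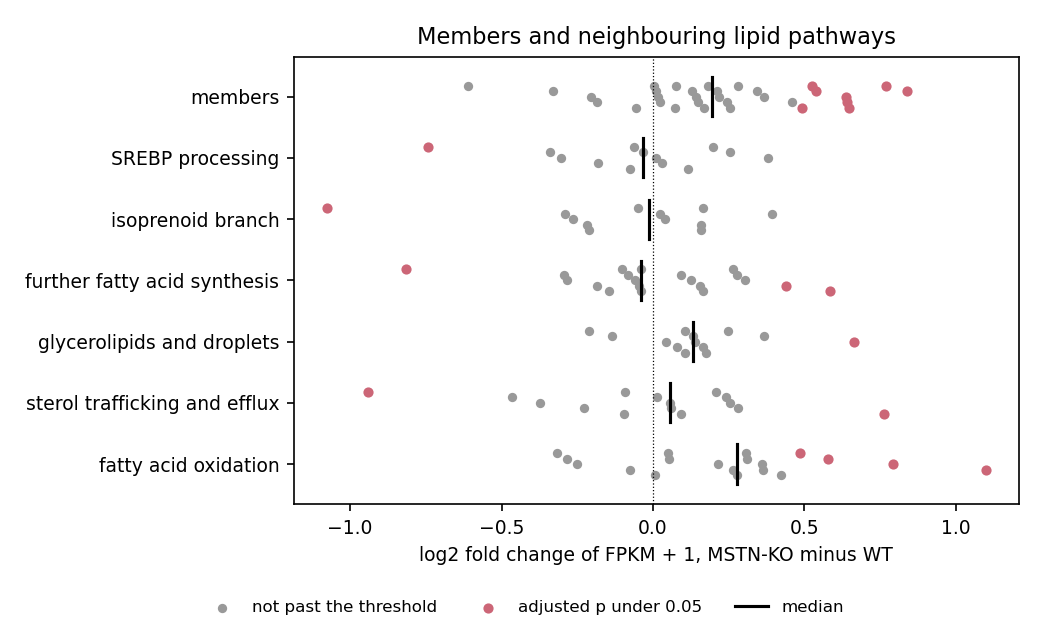
Log2 fold change of FPKM + 1 (MSTN-KO minus WT) of the 32 genes, labelled members, and of the tested genes of 6 neighbouring lipid lists, with genes past an adjusted p of 0.05 in red and the median of each list as a black line. The median is 0.20 for the 32 genes, 0.28 for fatty acid oxidation and -0.04 for further fatty acid synthesis.

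The genes of the list with a negative log2 fold change lay on 3 chromosomes. *Idi1* and *Hmgcs1* are on chromosome 13, *Insig2* and *Hsd17b7* on chromosome 1 and *Stard4* on chromosome 18. Over all tested genes, the median log2 fold change was -0.34 on chromosome 13, -0.25 on chromosome 1, -0.29 on chromosome 14 and -0.11 on chromosome 18. Of the 5 genes of the list on chromosomes 1, 13 and 14, 4 had a negative log2 fold change, and *Fdft1* on chromosome 14 had 0.018. Of the 27 genes on other chromosomes, 26 had a positive one, and *Stard4* was at -0.057. Measured from the median of its own chromosome, the log2 fold change was above 0 for 28 of the 32 genes and below 0 for *Srebf1*, *Acaca*, *Insig2* and *Idi1*. *Hmgcs1* was then at 0.16 and *Idi1* at -0.27. These chromosomes were singled out in earlier work on these libraries, and their part in the values of the 5 genes was not tested.

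**Figure D4:**
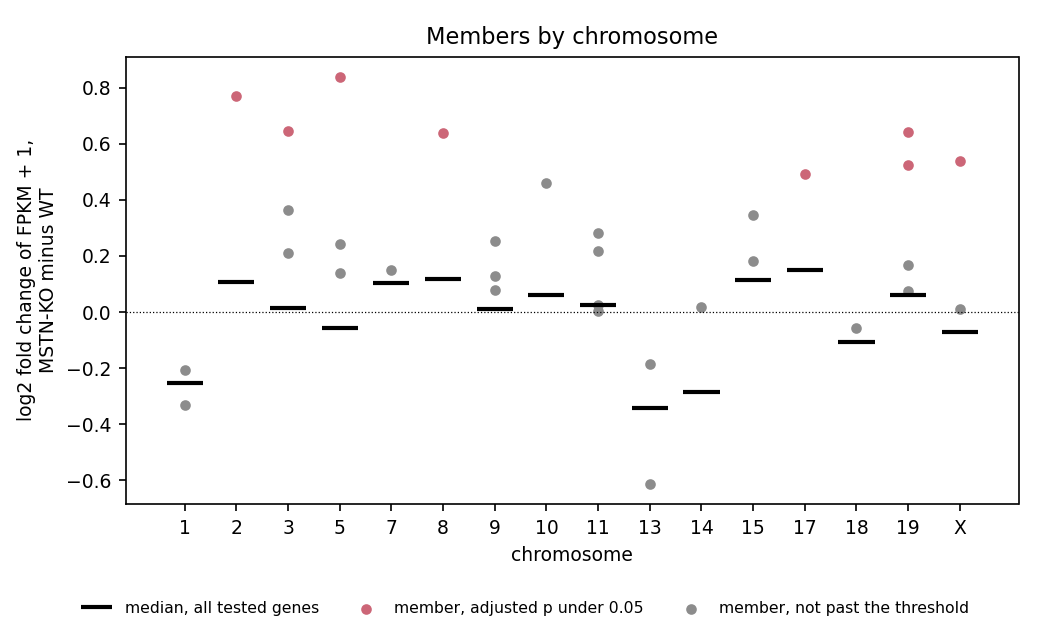
Log2 fold change of FPKM + 1 (MSTN-KO minus WT) of the 32 genes by chromosome (points, red for an adjusted p under 0.05), with the median of all tested genes on that chromosome as a black bar. The 4 points on chromosomes 1 and 13 lie below 0, as do the medians there, and 28 of the 32 points lie above the bar of their chromosome.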

How the data were processed

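RNA of C2C12 cells, WT and MSTN-KO with 3 libraries each, was sequenced on an Illumina instrument. The authors deposited 1 table for each library with an FPKM value per Ensembl gene, normalized for exonic length and for the mapped fragments of the library. The submitters' processing notes name Bowtie 0.12.2 and the genome build mm8. The annotation, the counter and the treatment of reads that match several genes are not given in the sources used here. FPKM is no count, so no interval for counting error was computed, and depth was judged only relative to WT replicate 1 from the steps of genes under 0.1 FPKM.

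Symbols, positions and transcripts were taken from GENCODE M21 (GRCm38), which gave a symbol for 14445 of 14548 genes. Values were transformed to log2(FPKM + 1) for the 10837 genes that reached 1 FPKM in 1 library or more and fitted with limma 3.58.1 (R 4.3.3, trended variance) on the genotype, two-sided, with Benjamini-Hochberg adjustment and a threshold of 0.05. An exact permutation test of 3 against 3 libraries cannot go below 0.1 and was not used for calls. Values per library were to be given for members past the threshold and for those whose call depends on 1 library, and from each other list at most 4 genes past the threshold, the largest log2 fold changes first. The per-library values of further members, the marker genes named, the CCAAT windows and *Mmab* were added after their values were seen. The members and lists were chosen with earlier results of these data known. Alternatives were a pseudocount of 0.1, no filter, a filter on the mean, no variance trend, quantile normalization, scaling to a sum of 1000000 or to percentile 75, smooth removal of length and GC content with mgcv 1.9.3, a block for the replicate number, and each library left out. Similar transcripts were found with BLAST 2.17.0 (at least 150 bases at 85% identity), and promoter motifs were searched in RefSeq windows with Python 3.11.15.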

Additional observations from a re-analysis of the deposited data

How the results depend on the processing

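With 3 libraries a group, 8 genes of the list were higher and 0 lower. Other settings gave 8 to 11 higher, except scaling to a sum of 1000000 (4 higher, 1 lower, median log2 fold change -0.083). Leaving out each library gave 5 to 10 higher, 0 to 2 lower and medians of 0.13 to 0.27, with 5 higher without WT replicate 2. Over all tested genes the same fits gave 423 higher and 606 lower without WT replicate 2, the fewest, and 1184 and 1251 without MSTN-KO replicate 2, the most. The lower ones were *Idi1* without MSTN-KO replicate 1 and *Idi1* with *Insig2* without MSTN-KO replicate 2. The correlation of deviations over genes between libraries of the same replicate number was -0.015, -0.13 and -0.14 for numbers 1, 2 and 3. Between unlike numbers it ran from -0.069 to 0.16. Deviations within a group sum to 0, so these values are not independent of each other. None of the same-number values was above 0, and whether the numbers pair the libraries was not tested. With the replicate number as a block, 8 were higher and 1, *Idi1*, lower (limma adjusted p = 0.0292), beside 939 and 1001 of all tested genes, and with the length and GC correction added 10 were higher, *Elovl5* no longer among them (adjusted p = 0.0788). Scaling to a sum of 1000000 turned the split of all tested genes from 952 higher and 971 lower to 350 and 2367. None of the changes of sign below concerned a called gene. Quantile normalization gave *Srebf1* -0.0232, *Fdft1* -0.0298, *Ebp* -0.0905, *Stard4* 0.0358 and *Scd2* -0.11. Scaling to percentile 75 gave *Srebf1* -0.0267, *Fdft1* -0.0326, *Ebp* -0.0405 and *Acaca* -0.0421. Scaling to 1000000 gave *Srebf1* -0.26, *Srebf2* -0.10, *Scap* -0.20, *Insig1* -0.14, *Fdft1* -0.26, *Cyp51* -0.034, *Ebp* -0.27, *Sc5d* -0.13, *Dhcr7* -0.12, *Acaca* -0.26, *Fasn* -0.065, *Scd1* -0.11, *Scd2* -0.21, *Elovl5* -0.021 and *Elovl6* -0.024. The length and GC correction, with or without the block, gave *Srebf1* -0.0046, *Ebp* -0.048 and *Stard4* 0.076. With each library left out, *Fdft1* ran from -0.027 to 0.067, *Srebf1* ran from -0.0896 to 0.19, *Ebp* ran from -0.091 to 0.12, *Acaca* ran from -0.11 to 0.12, *Stard4* ran from -0.13 to 0.086, *Scd1* ran from -0.039 to 0.32 and *Hmgcs1* ran from -0.34 to 0.022. The cause of these changes was not tested. The depth behind each FPKM is unknown, so the precision of low genes such as *Acss2* rests on the spread of 3 libraries.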

Other observations

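*Mmab*, which shares its promoter region with *Mvk* on the opposite strand and encodes an enzyme of cobalamin metabolism, is no gene of the list and was looked at after the values of *Mvk* were seen. It was at 6.28, 5.58 and 4.85 FPKM in WT replicates 1 to 3 and at 9.23, 9.60 and 9.51 FPKM in MSTN-KO replicates 1 to 3, without overlap. It was higher by 0.68 on the log2 scale (SE 0.14, limma adjusted p = 0.00659), beside 0.84 for *Mvk*. The annotated ends of the pair lie at 114444060 for *Mmab* and 114444269 for *Mvk* on chromosome 5 of GRCm38. The ratio of *Insig1* to *Insig2* in a library was 1.17, 1.23 and 1.62 in WT replicates 1, 2 and 3 and 2.25, 1.16 and 2.50 in MSTN-KO replicates 1, 2 and 3, so MSTN-KO replicate 2 lay below the WT libraries and the other two above them. In the same replicate the ratio of *Scd2* to *Scd1* was 2.93, beside 3.76 to 4.21 in the other libraries.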
